A study of Mus musculus with 2 samples.

Results

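The 9 genes described here encode the receptors of retinoic acid (Rara, Rarb, Rarg, Rxra and Rxrb) and proteins that supply or remove it (Aldh1a1, Aldh1a2, Cyp26b1 and Stra6). Peaks of the coactivator EP300 were taken as theirs when the nearest protein-coding transcription start site (TSS) within 100 kb of the summit belonged to one of them, or when the summit lay inside one of their gene bodies. This rule gave 44 of the 43988 peaks in the optimal set of reproducible peaks. Of these, 29 belonged to the receptor genes and 15 to the synthesis, breakdown and uptake genes. No peak entered through the gene-body part of the rule alone. A site may act on a gene other than the nearest. Over the whole set, 86.2% of 43972 peaks on the chromosomes were assigned to a gene by the same limit.

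Retinoic acid is made from vitamin A. Retinol carried by retinol-binding protein enters cells through the membrane receptor STRA6, is oxidised to retinaldehyde, and is then oxidised to retinoic acid by the ALDH1A dehydrogenases, while CYP26 enzymes break it down. Retinoic acid receptors (RARs) bind DNA as heterodimers with retinoid X receptors (RXRs), at direct repeats of a hexamer, and recruit coactivators such as EP300, an acetyltransferase, when the ligand is bound. In the lung the pathway is known for its parts in the budding of the lung from the foregut and in the formation of alveoli after birth.

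ChIP-seq (sequencing of DNA recovered with an antibody, here against EP300) was done on lung tissue of newborn B6NCrl mice (postnatal day 0). The 2 libraries form 1 group, numbered as biological replicates 1 and 2, but their labels give the same donor and biosample record, so differences between them may be technical. There was no second condition, and every comparison below is a description with no test. The labels name no treatment or genetic change, and the sex was not collected. A possible control experiment that they name was not analysed here. The peak lists gave no read counts, so depth was unknown. As a check of the tissue label, 6 of 6 lung marker genes (Sftpb, Sftpc, Nkx2-1, Ager, Hopx and Napsa) had an assigned peak, against 1 of 3 liver, 0 of 3 heart and 2 of 3 brain marker genes. Over all protein-coding genes 46.4% had one, so this count separates tissues weakly. A summit within 1 kb of a TSS was found at 6 of 6 lung markers and at 0 of 3 in each other tissue. Over all protein-coding genes 23.6% had such a summit. In whole tissue, strong occupancy in few cells and weak occupancy in many cells cannot be told apart.

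The sequences at the centres of the peaks that lead the results are shown here so that the sites can be read beside their values. Each is the central 100 bp around the summit (build mm10), 5′ to 3′ on the strand of the member gene. Capitals mark matches, in either orientation, to short sequences searched for: GGAAGT for ETS factors, TGACTCA for AP-1, which also covers its reverse complement, TGTTTAC for FOX factors, CATTCC for TEAD factors, TTGCNNAA for CEBP factors, CACTTNA for NKX2 factors, the glucocorticoid receptor palindrome, GGGCGG for SP/KLF factors and AGATAAG for GATA factors. A match is a description and not a measured binding site.
Rara, strongest peak, chr11:98942164-98942263, plus strand: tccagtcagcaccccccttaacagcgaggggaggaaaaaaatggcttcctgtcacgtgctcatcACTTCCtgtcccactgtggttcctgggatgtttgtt
Rara, next strongest peak, chr11:98942914-98943013, plus strand: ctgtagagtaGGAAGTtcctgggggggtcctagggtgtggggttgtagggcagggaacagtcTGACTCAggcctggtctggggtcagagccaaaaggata
Rarb, strongest peak of all members, chr14:16554461-16554560, minus strand: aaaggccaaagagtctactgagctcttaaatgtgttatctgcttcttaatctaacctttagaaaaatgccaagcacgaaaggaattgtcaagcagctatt
Rarb, neighbour of the strongest peak, chr14:16558199-16558298, minus strand: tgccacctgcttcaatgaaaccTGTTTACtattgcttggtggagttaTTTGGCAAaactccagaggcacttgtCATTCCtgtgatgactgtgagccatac
Rxra, strongest peak, chr2:27756376-27756475, plus strand: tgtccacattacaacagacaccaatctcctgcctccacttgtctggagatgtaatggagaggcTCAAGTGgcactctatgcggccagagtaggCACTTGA
Aldh1a1, strongest peak, chr19:20530139-20530238, plus strand: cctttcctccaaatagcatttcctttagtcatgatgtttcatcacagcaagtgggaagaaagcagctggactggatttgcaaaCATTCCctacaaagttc
Aldh1a1, peak with the glucocorticoid receptor sequence, chr19:20527968-20528067, plus strand: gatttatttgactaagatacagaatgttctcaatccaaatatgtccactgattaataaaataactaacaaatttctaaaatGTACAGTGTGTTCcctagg
Cyp26b1, strongest peak, chr6:84630416-84630515, minus strand: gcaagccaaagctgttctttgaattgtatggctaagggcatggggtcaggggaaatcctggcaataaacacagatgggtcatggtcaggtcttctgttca
Cyp26b1, next strongest peak, chr6:84640746-84640845, minus strand: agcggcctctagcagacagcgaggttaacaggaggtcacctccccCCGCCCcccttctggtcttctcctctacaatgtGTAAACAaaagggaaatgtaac
The strongest Rarb and the strongest Cyp26b1 centres held none of these sequences.

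Peaks were unevenly spread over the 9 genes. Rara had 13 peaks, Aldh1a1 9, Rarb, Rxra and Cyp26b1 6 each, and Rarg 4, while Rxrb, Aldh1a2 and Stra6 had none. Thus 6 of 9 members had at least 1 peak, and 46.4% of 21938 protein-coding genes did. Over all of these genes the mean was 1.73 peaks (SD 3.50 over genes) and the median 0. Genes with at least 13 peaks made up 2.26% of protein-coding genes, those with at least 9 made up 4.56%, those with at least 6 made up 8.77% and those with at least 4 made up 14.8%.

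**Figure D1:**
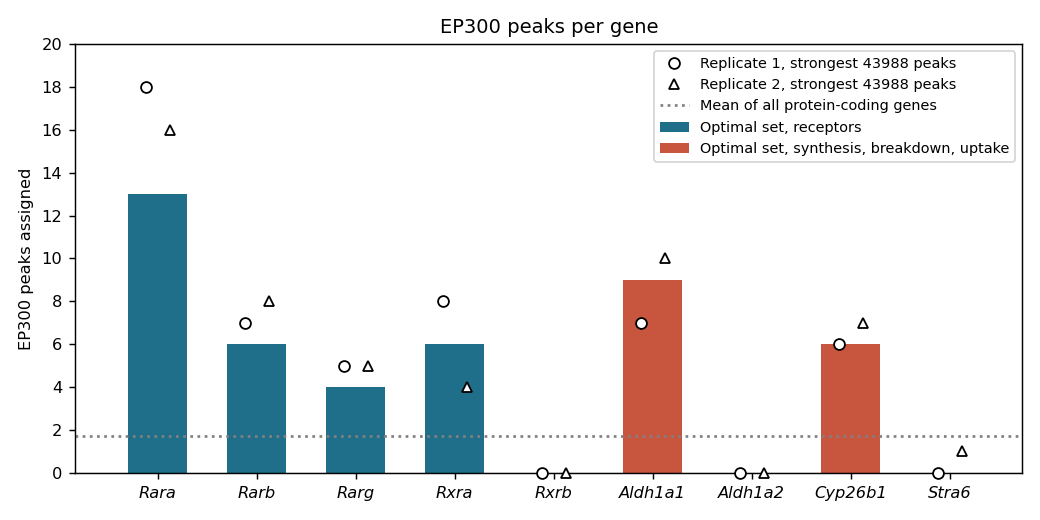
EP300 peaks assigned to each gene (vertical axis, number of peaks), receptors in blue on the left and synthesis, breakdown and uptake genes in red on the right. Bars give the optimal set, circles and triangles the strongest 43988 peaks of replicate 1 and replicate 2, and the dotted line the mean of 1.73 over all protein-coding genes. Rara stood above the other genes in both libraries, and the 3 genes with no bar had at most 1 peak in either library.

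The counts were next taken from each library alone, using its own strongest 43988 peaks. Rara had 18 in replicate 1 and 16 in replicate 2 (mean 17.0 ± 1.41, SD, n = 2). Aldh1a1 had 7 and 10 (8.50 ± 2.12), Rarb 7 and 8 (7.50 ± 0.707), Cyp26b1 6 and 7 (6.50 ± 0.707) and Rxra 8 and 4 (6.00 ± 2.83). Rara was above every other member in both libraries. Among the stronger 50% of the optimal set, however, Rara, Rarb and Cyp26b1 had 6 each. In the libraries the ranges of Aldh1a1, Rarb, Cyp26b1 and Rxra overlapped, so their order was not settled beyond the spread between the libraries. Rarg had 5 in each library, inside the range of Rxra. Rxrb and Aldh1a2 had 0 in each, and Stra6 had 0 in replicate 1 and 1 in replicate 2.

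How much sequence a gene collects peaks from differed greatly between members. The stretch within 100 kb for which a gene's TSS is the nearest was 47.6 kb for Rara, 26.3 kb for Rarg and 6.20 kb for Rxrb, but 375.7 kb for Rarb, 222.9 kb for Aldh1a1, 211.2 kb for Rxra and 206.2 kb for Cyp26b1. Per 100 kb of this territory Rara had 27.3 peaks and Rarg 15.2, whereas Aldh1a1 had 4.04, Cyp26b1 2.91, Rxra 2.84 and Rarb 1.60. All protein-coding genes together had 2.25. The density at Rara and Rarg was thus several times that of the genome, and the density at Rarb was below it.

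Within the genes of like territory (deciles of territory size), Rara stood near the top: 0.684% of the 2192 genes in its decile had 13 peaks or more. Overlapping peaks were counted separately here for every gene, and with them merged Rara had 10. Rarg was also high, as 4.93% of genes in its decile had 4 or more, but with overlapping peaks merged Rarg had 3. Rarb, Rxra, Aldh1a1 and Cyp26b1 all fell in the decile with the largest territories, where 32.3% of genes had 6 peaks or more and 21.3% had 9 or more. For these 4 genes the count was not unusual for the sequence around them. The absence of peaks was common among genes of like territory too: 75.8% in the decile of Rxrb, 52.3% in that of Stra6 and 39.9% in that of Aldh1a2 had none.

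Rara encodes retinoic acid receptor alpha, a broadly expressed RAR. It lies at chr11:98927818-98974942 on the plus strand. Of its 13 peaks 12 lay in its introns, 5 in intron 1 and 7 in intron 2 of the transcript Rara-203, and the other lay 2.28 kb before its first TSS. The peaks spanned 38.4 kb, with a median gap of 3.50 kb between neighbouring summits. The strongest, at chr11:98942002-98942425, had a signal value of 139.8, with 70.9 in replicate 1 and 62.7 in replicate 2. The next, further on at chr11:98942752-98943175, had 122.9, with 73.7 in replicate 1 and 49.5 in replicate 2. These neighbours lay in intron 1, between the TSS at 98939711 and the one at 98960412, and both ranked among the strongest 10% of the set.

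Peaks also lay close to the alternative start sites of Rara. One summit lay 243 bp before the TSS at 98937698 and had a signal of 55.4, and another lay 782 bp before the TSS at 98960412 and had 47.6. The libraries differed at the summit near 98937698: its signal was 32.1 and its rank 18382 in replicate 1, but 9.85 and 70680 in replicate 2. At the summit near 98960412 the ranks were 19524 in replicate 1 and 29395 in replicate 2. No optimal summit lay within 1 kb of the upstream TSS at 98927818. The remaining 9 Rara peaks had signals between 10.4 and 61.3. Of the 13 peaks 6 formed overlapping pairs, and with overlapping peaks merged Rara had 10.

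Rarb, which encodes the beta receptor, is itself a known target of retinoic acid through a response element in its promoter. The gene runs over 388.3 kb at chr14:16430839-16819156 on the minus strand, with start sites grouped near 16819156 and near 16575543. Its strongest peak, at chr14:16554404-16554578, had a signal of 221.9 and rank 765 of 43988. Its signal was 120.7 in replicate 1, where it ranked 847, and 100.5 in replicate 2, where it ranked 743. This was the strongest peak of all 9 genes, and the libraries placed its summit within 2 bp and 1 bp of the pooled one. It was also the only member peak with a width other than 424 bp, being 175 bp wide.

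This peak lay in intron 1 of Rarb-201, the transcript that starts at 16575543, 21 kb beyond that start. A neighbour 3.74 kb away in the same intron, at chr14:16558037-16558460, had a signal of 91.9, with 56.7 in replicate 1 and 35.2 in replicate 2. Its centre held a FOX, a CEBP and a TEAD sequence, as printed above. The other 4 Rarb peaks had signals of 56.5 to 82.3. They lay in intron 3 of that transcript, in the part of the gene between the start groups (2 peaks) and 28.4 kb before the upstream start.

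No EP300 summit of the optimal set lay at either group of Rarb start sites. The nearest was 12.7 kb from the upstream group and 17.2 kb from the RefSeq start at 16575476. The nearest pooled peak to that RefSeq start was 1393 bp away and ranked 65420 of 300000, with a signal of 21.5. The 100 bases before that start (RefSeq, GRCm38.p6) are shown because they hold the only direct repeat found in the RefSeq promoters of the 9 genes. Capitals mark a repeat with a spacer of 5 bases between hexamers.
Rarb promoter, chr14:16575477-16575576, minus strand: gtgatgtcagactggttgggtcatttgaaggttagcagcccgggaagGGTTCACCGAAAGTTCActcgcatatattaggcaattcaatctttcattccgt
Of 32851 RefSeq promoter sequences 0.0974% held such a repeat.

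Rarg encodes the gamma receptor and lies at chr15:102234938-102257517 on the minus strand. All 4 of its peaks were intronic and fell within 6.97 kb. The strongest, at chr15:102240518-102240941 in intron 5 of Rarg-201, had a signal of 127.7, with 77.5 in replicate 1 and 52.3 in replicate 2. Next came a summit 18 bp before the internal TSS at 102243589, with a signal of 89.9, 47.2 in replicate 1 and 44.3 in replicate 2. The ranks of these peaks were 3270 and 9684 in replicate 1 and 4498 and 6419 in replicate 2. A CEBP palindrome lay at this promoter summit, shown in capitals in the 30 bases around it.
Rarg internal promoter, chr15:102243596-102243625, minus strand: gcacccaggccTTGCGCAAgagaggaaatg
An overlapping pair of weaker peaks lay about 1 kb before the TSS at 102246500. The stronger of the pair had a signal of 54.4 and a summit at 997 bp. The weaker had 23.6, ranked 157883 in replicate 1 and had no partner within 100 bp in replicate 2.

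Rxra and Rxrb encode retinoid X receptors, the dimer partners of the RARs and of several other nuclear receptors. At Rxra (chr2:27676440-27762957, plus strand) no peak lay near the starts of its coding transcripts. Its 6 peaks began 57.2 kb beyond the TSS at 27677201. They lay in introns 1, 2, 4, 8 and 9 of Rxra-201 and, for the last, beyond the 3′ end of the gene. The strongest, at chr2:27756214-27756637 in intron 8, had a signal of 94.2, with 56.5 in replicate 1 and 36.7 in replicate 2. The next, in intron 9, had 76.6, with 49.8 in replicate 1 and 22.3 in replicate 2. The remaining 4 had 19.8 to 48.3. A summit 550 bp beyond the TSS at 27740201 was the weakest of them. That TSS belongs to a transcript not annotated as coding.

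By signal ratio the Rxra peaks were the least alike between the libraries. After the median log2 ratio of -0.40 (replicate 2 over replicate 1, over 37767 optimal peaks found in both) was removed, the Rxra peaks had a median of -0.91, and 5 of 6 were relatively stronger in replicate 1. Of the 6 peaks 3 were within 2-fold of the median ratio. Among all 37767 peaks 89.3% were. In the conservative set Rxra had 4 peaks.

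Rxrb (chr17:34031812-34038399, plus strand) received no peak by the rule, yet a summit lay 144 bp from its TSS. That peak, at chr17:34031456-34031879, was assigned to the zinc transporter gene Slc39a7, which runs the other way and whose nearest TSS was 6 bp from the summit. It had a signal of 78.7 and rank 10324, with 56.9 in replicate 1 and 19.99 in replicate 2. Such a site cannot be given to either gene from its position. The 129 bases between the 2 gene starts are printed to show how close they are. Capitals mark an SP/KLF and an ETS sequence.
Between Slc39a7 and Rxrb, chr17:34031683-34031811, plus strand: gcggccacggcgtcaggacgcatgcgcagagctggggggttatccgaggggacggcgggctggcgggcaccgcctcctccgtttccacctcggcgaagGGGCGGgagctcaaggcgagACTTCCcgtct
By the same rule the pooled list held 2 peaks at Rxrb, the stronger with rank 87391 and a signal of 17.5.

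**Figure D2:**
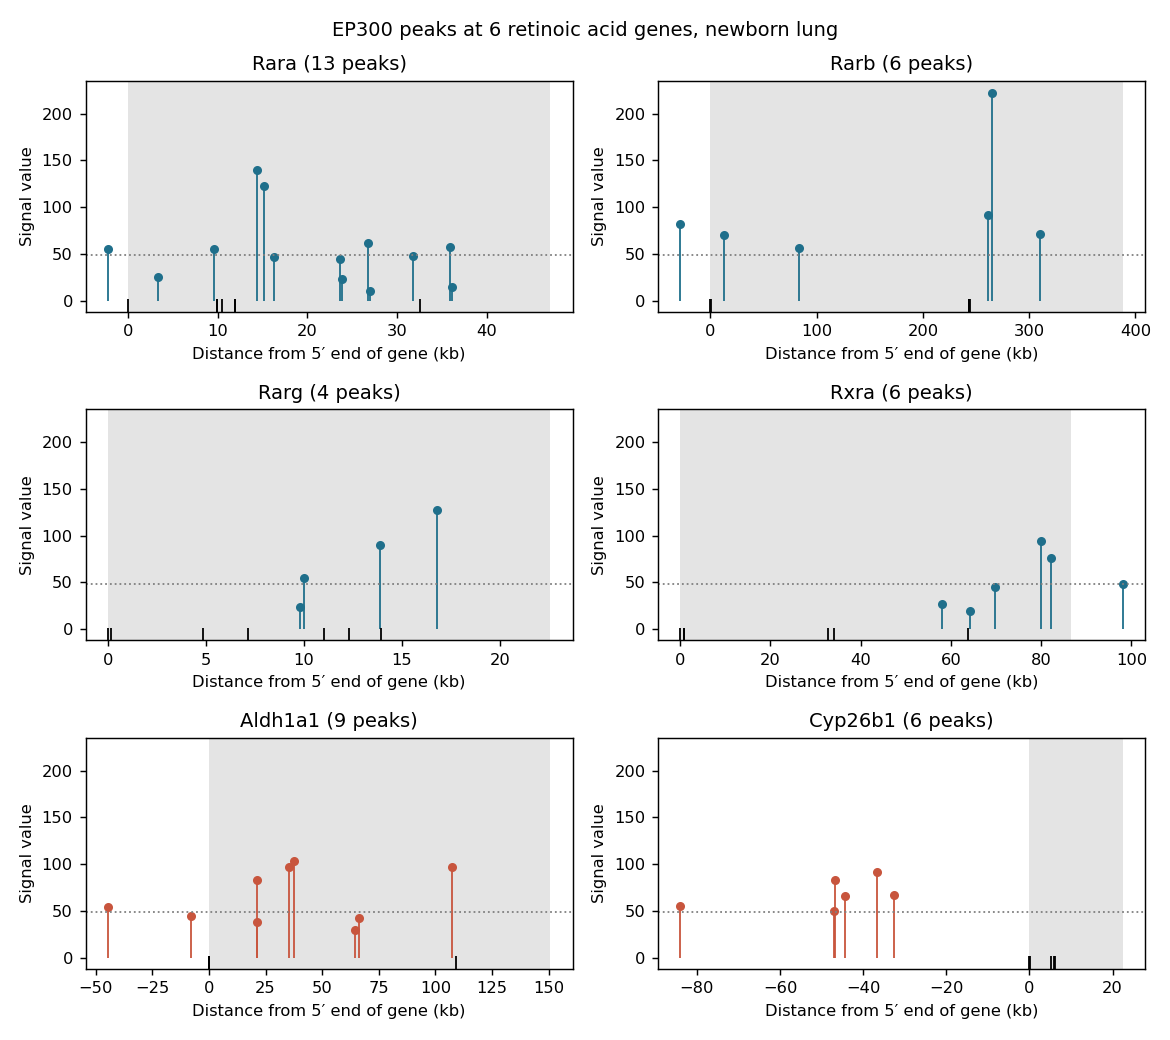
EP300 peaks at the 6 genes with peaks, with the distance of the summit from the gene's 5′ end in kb along the direction of transcription (horizontal axis) and the signal value (vertical axis). Grey bands are gene bodies, black ticks are transcription start sites, and the dotted line is the median signal of the optimal set, 48.5. Rara peaks were packed within 38.4 kb, the strongest Rarb peak reached 221.9, and all 6 Cyp26b1 peaks lay before the gene.

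Aldh1a1, a retinaldehyde dehydrogenase that makes retinoic acid, had the most peaks of the enzyme genes. It lies at chr19:20492715-20643465 on the plus strand, with start sites near 20492715 and at 20601961. Of its 9 peaks 7 were intronic, 4 in intron 2 and 3 in intron 3 of Aldh1a1-206, and 2 lay 8.09 kb and 44.7 kb before the gene. All 9 lay before the start site at 20601961, so the intronic places hold only for transcripts from the upstream starts. The strongest, at chr19:20529977-20530400, had a signal of 103.2, with 41.4 in replicate 1 and 58.4 in replicate 2. Its neighbour at chr19:20527806-20528229, 2.17 kb away, had 96.8, with 44.9 in replicate 1 and 53.2 in replicate 2. Both were in intron 2, and the neighbour was the only member peak whose centre held a glucocorticoid receptor sequence, as printed above. Over all optimal peaks this sequence was found in 2.17%.

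A further Aldh1a1 peak lay 1.81 kb before the internal TSS at 20601961. It had a signal of 97.3, with 46.7 in replicate 1 and 49.8 in replicate 2. The fourth peak above a signal of 80 had 82.7 and lay in intron 2, with 53.9 in replicate 1 and 34.9 in replicate 2. The other 5 had signals of 29.2 to 54.3. Of the 9 peaks 6, including the 2 before the gene, also lay inside C730002L08Rik, a noncoding gene that overlaps Aldh1a1. Of the 9 peaks 6 were relatively stronger in replicate 2, with a centred median log2 ratio of 0.27.

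Aldh1a2, the main retinoic acid synthesis enzyme of the mouse embryo, had no optimal peak over its 80.5 kb (chr9:71215789-71296243). The nearest summit was 48.5 kb away at the promoter of the aquaporin gene Aqp9, with a signal of 37.0. By the same rule the pooled list held 10 peaks at Aldh1a2, and the strongest ranked 91323 of 300000, with a signal of 17.1. The strongest ranked 78317 in replicate 1 and 85410 in replicate 2, and these were different sites.

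Cyp26b1 encodes a cytochrome P450 that breaks down retinoic acid. The gene is short, 22.5 kb at chr6:84571414-84593908 on the minus strand, and held no optimal peak inside it or at its start. All 6 of its peaks lay 32.7 to 84.0 kb before it, inside the neighbouring gene Exoc6b, which encodes an exocyst subunit. Of these, 5 fell between 32.7 and 47.1 kb. The strongest, at chr6:84630254-84630677, had a signal of 91.0, with 40.1 in replicate 1 and 47.8 in replicate 2. The next, at chr6:84640584-84641007, had 82.5, with 49.97 in replicate 1 and 29.3 in replicate 2. The other 4 had 49.7 to 66.9, so that every Cyp26b1 peak was above the median of the set (48.5).

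Exoc6b held 14 optimal peaks in its body, of which 7 were nearest to its own start sites and 7 to that of Cyp26b1. The last of these 7 lay 100.1 kb from the Cyp26b1 TSS, just outside the limit, and had a signal of 43.0. The farthest Cyp26b1 peak inside the limit lay at 84.0 kb and had 55.1. With a limit of 10 kb, and summits inside a gene's own body still counted, Cyp26b1 had 0 peaks.

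Stra6, the membrane receptor for retinol uptake, had no optimal peak (chr9:58063788-58153996). The nearest summit lay 16.5 kb from one of its start sites, inside the neighbouring gene Ccdc33, with a signal of 57.6. That start, at 58063788, belongs to a transcript not annotated as coding. The RefSeq starts of Stra6 lay 75.1 to 80.7 kb from the nearest optimal summit. The pooled list held 6 peaks at Stra6, the strongest with rank 54550 and a signal of 24.7. In replicate 2 alone the strongest ranked 35650, which gives the 1 peak counted above, and in replicate 1 the strongest ranked 56031. With 1 start site per gene Stra6 also had 1 peak.

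Averaged over 5 receptor genes there were 5.80 peaks (SD 4.71), and over the 4 synthesis, breakdown and uptake genes 3.75 (SD 4.50). The difference of 2.05 was smaller than the spread among the genes of either group. It was 4.35 in replicate 1 and 2.10 in replicate 2 (mean 3.23 ± 1.59, SD, n = 2). It rested on Rara: without it the receptors had 4 peaks per gene and the difference was 0.25. Among the stronger 50% of the set the difference was 0.65. With Stra6 set aside, the 3 synthesis and breakdown genes had 5.00 per gene and the difference was 0.80. The median signal was 55.4 for receptor peaks and 66.4 for enzyme gene peaks, against 48.5 for the whole set. By gene it was 76.6 at Rarb, 72.2 at Rarg, 47.6 at Rara and 46.6 at Rxra. At Cyp26b1 it was 66.6 and at Aldh1a1 54.3, so receptor genes lay on both sides of the enzyme genes. Of the receptor peaks 4 of 29 were in the strongest 10% of the set (Rarb, Rara and Rarg), and of the enzyme gene peaks 0 of 15.

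The distances from start sites also differed. Receptor peaks had a median distance of 5.64 kb from the nearest TSS, and enzyme gene peaks 37.4 kb. The median over the 37891 assigned peaks of the set was 11 kb. Over 10 kb lay 9 of 29 receptor peaks and 13 of 15 enzyme gene peaks, where 52.1% of all assigned peaks did. The short receptor distances were those of Rara (median 3.31 kb) and Rarg (1.10 kb), while Rxra had a median of 11.1 kb and Rarb 24.5 kb. All Rxra distances were to the start at 27740201, of a transcript not annotated as coding. From the starts of coding transcripts the Rxra peaks lay 23807 to 63962 bp away, so all were over 10 kb. Without Rara the other 16 receptor peaks had a median of 14.5 kb, and 9 of 16 lay over 10 kb, close to the share of all assigned peaks. The receptor figures rest in part on that Rxra start, and with coding starts alone more receptor peaks lay over 10 kb. By nearest start of any transcript both enzyme genes with peaks were farther, with medians of 35.3 kb at Aldh1a1 and 45.7 kb at Cyp26b1. Their territories (222.9 kb and 206.2 kb) were also larger than those of Rara (47.6 kb) and Rarg (26.3 kb). A small territory limits how far from a start an assigned peak can lie. How much of the contrast in distance comes from this was not tested. The summit was inside the gene body for 26 of 29 receptor peaks and for 7 of 15 enzyme gene peaks, and all of these summits were intronic. The lower enzyme gene count was that of Cyp26b1 (0 of 6), while Aldh1a1 had 7 of 9. The share over all peaks was not computed, so no difference between the groups was read from these counts.

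**Figure D3:**
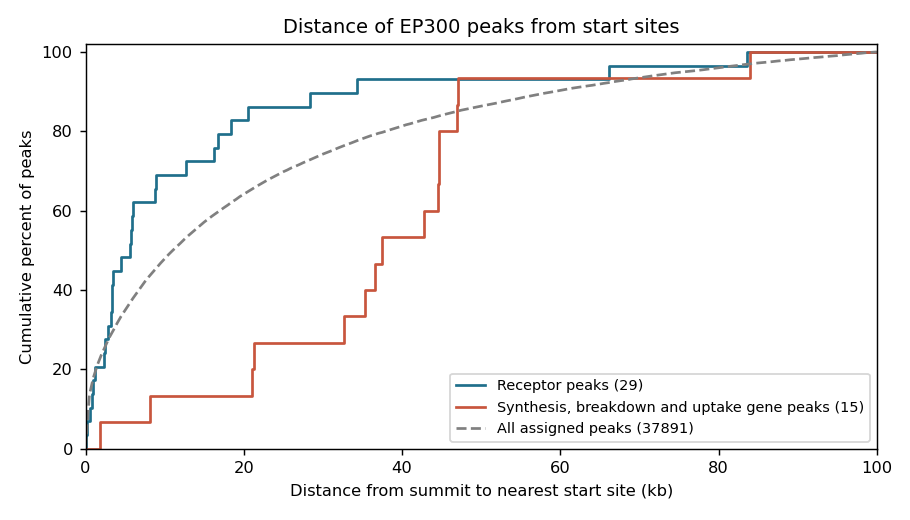
Cumulative percent of peaks (vertical axis) by distance from the summit to the nearest start site in kb (horizontal axis), for 29 receptor peaks, 15 peaks of the synthesis, breakdown and uptake genes, and all 37891 assigned peaks. The receptor curve lies left of that of all peaks beyond the first few kb (median 5.64 kb), and the enzyme gene curve lies right of it over most of the axis (median 37.4 kb).

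Promoter peaks, with a summit within 1 kb of a TSS, were found among the receptors and not among the other members. Rara and Rarg had 2 each and Rxra had 1, which makes 5 of 29 receptor peaks and 0 of 15 enzyme gene peaks, where 18.0% of all assigned peaks lay within 1 kb of a TSS. The share of the receptor peaks (17.2%) was thus near that of all assigned peaks. Counting also the shared site at Rxrb, 4 of 5 receptor genes and 0 of 4 synthesis, breakdown and uptake genes had a summit within 1 kb of a TSS, where 23.6% of protein-coding genes did. When the starts of protein-coding transcripts alone were used, which removes the Rxra site, 3 members had one. With a limit of 2 kb, 4 of 5 receptor genes and 1 of the 4 others, Aldh1a1, had one.

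Base composition followed the loci. The central 100 bp of receptor peaks had a median G+C content of 56.0% and those of enzyme gene peaks 40%, with 47.0% over all optimal peaks. Without Rara the receptor median was 50.5%. Rarg (63.5%), Rara (62.0%) and Rxra (54.0%) were above that value, and Rarb (40.5%), Cyp26b1 (45.5%) and Aldh1a1 (37.0%) were below it. Rarb thus lay with the enzyme genes in this respect.

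**Figure D4:**
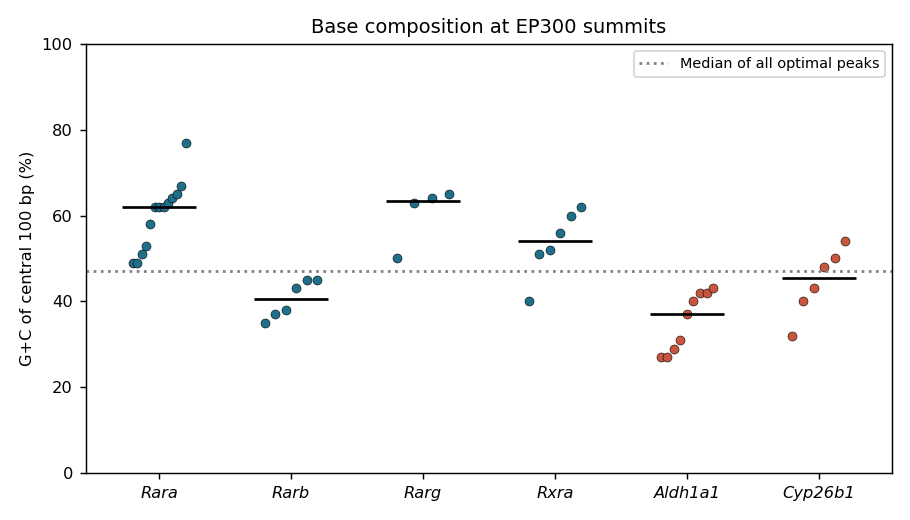
G+C content of the 100 bp around each summit (vertical axis, percent) for the 6 genes with peaks, receptors in blue and enzyme genes in red. Each point is a peak, bars are medians, and the dotted line is the median of all optimal peaks, 47.0%. All 13 Rara peaks lie above the line and all 9 Aldh1a1 peaks lie below it.

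No member peak held a retinoic acid response element as searched for here. The search covered pairs of hexamers, each of them AGGTCA, or the variant AGTTCA, or the variant GGGTCA, or the variant GGTTCA, in the same direction, with a spacer of 1, 2 or 5 bases, on either strand of the central 100 bp. It found 0 of 44 member peaks and 90 of 43972 peaks in all (0.205%), with 0.0705% for a spacer of 1, 0.0546% for 2 and 0.0796% for 5. At such a share few or none are to be found among 44 peaks. The same was found for the central 200 bp, with 0 of 44 member peaks and 0.482% of all. This says only that these letters are not in these windows.

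The other sequences occurred at low counts. CEBP, ETS and SP/KLF sequences were each found in 4 of 44 member peaks, where 8.70%, 13.5% and 4.66% of all peaks held them. FOX and NKX2 sequences were in 3 each (5.35% and 9.85% of all peaks), the TEAD sequence in 2 (11.7%) and AP-1 in 1 (5.94%), at Rara. GATA was in 0, where 3.23% of all peaks held it. All 4 ETS matches were at Rara. At these counts no share was read as different from that of all peaks.

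The optimal set holds peaks chosen for reproducibility, so most are found in both libraries. Of the 44 peaks 42 had a summit within 100 bp in the full list of replicate 1 and 41 in that of replicate 2, where 93.5% and 91.1% of all optimal peaks did. Both libraries had 28 of the 44 (63.6%) among their strongest 43988 peaks, where 63.0% of all optimal peaks met this rule. It held for 17 of 29 receptor peaks and 11 of 15 enzyme gene peaks. All 15 enzyme gene peaks and 24 of 29 receptor peaks were found in both full lists, as were 85.9% of all optimal peaks. The members thus lay near the share of the whole set by each of these measures. The median distance between the optimal summit and that of the library was 11 bp in each.

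**Figure D5:**
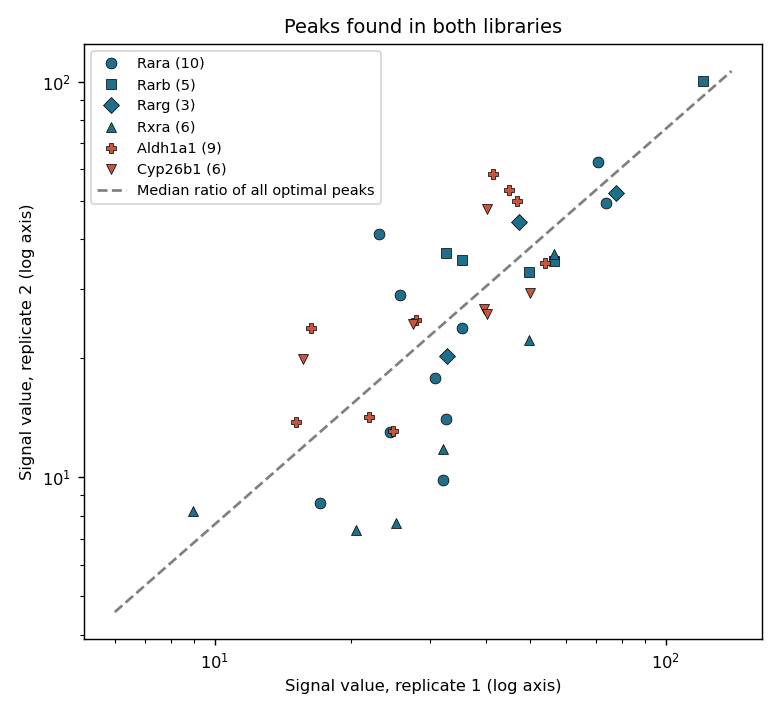
Signal value in replicate 2 (vertical, log axis) against replicate 1 (horizontal, log axis) for the 39 member peaks found in both libraries, receptors in blue and enzyme genes in red, with the number of peaks per gene in the legend. The dashed line is the median ratio over all optimal peaks. The strongest Rarb peak lies at the upper right near the line, and 5 of 6 Rxra peaks lie below it.

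Of 21 other genes of the retinoid pathway (transport, metabolism, the receptor gene Rxrg and the response gene Stra8), 13 had an assigned peak (61.9%, against 46.4% of all genes), with a median of 1 peak. Dhrs3, whose product reduces retinaldehyde back to retinol, had 10 peaks, with 12 in replicate 1 and 10 in replicate 2, and its strongest had a signal of 240.9. Fabp5, a fatty acid binding protein that can also carry retinoic acid, had 6, and the alcohol dehydrogenase gene Adh1 had 3. The other CYP26 genes, Cyp26a1 and Cyp26c1, had 0, and Aldh1a3 had 2. The list was drawn from pathway knowledge with earlier results of these data known.

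Of 16 textbook retinoic acid target genes, 13 had a peak, with a median of 2.5. For this and the next 2 lists, the share over all protein-coding genes was 46.4%. Tgm2, a transglutaminase, had 16, the nuclear receptor corepressor gene Nrip1 had 10 and the homeobox gene Meis1 had 9. Of 8 genes of corepressors and coactivators of these receptors, 5 had a peak, and the coactivator genes Ncoa2 and Ncoa3 had 8 and 7. All 11 genes of other RXR partners had a peak, with a median of 2, led by the immediate early receptor gene Nr4a1 with 9, Pparg with 6 and the thyroid hormone receptor gene Thra with 5. Unlike the members, the genes of these lists were not set beside genes of like territory, so no list was read as richer in peaks.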

How the data were processed

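EP300 ChIP-seq peaks of 2 libraries were analysed from the deposited lists. Per the deposited notes, alignments were made to mm10. The authors deposited lists of 300000 peaks for either library and for the pool, with an optimal set of 43988 and a conservative set of 42473 reproducible peaks from IDR (irreproducible discovery rate). The aligner and caller are not given in the sources used here. Each peak carries a signal deposited by the authors with no stated scaling, and optimal peaks carry the pooled value. Ranks and signals describe peaks within a list. No read counts were given, so depth and its precision are unknown. Nearly all peaks (96.9%) have a width of 424 bp, so neighbouring windows can overlap.

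The 16 optimal peaks off the 21 chromosomes were left out. Summits were assigned to the nearest TSS of any transcript of 21938 protein-coding genes (GENCODE vM21, GRCm38.p6). Each library was represented by its strongest 43988 peaks, and peaks were matched between lists when summits lay within 100 bp. The genes named were all 9 members, the 3 genes with most peaks in each other list (ties by summed signal), and neighbours at a member's peaks. A gene that this rule picks is not reported here. Cyp26a1, Cyp26c1 and Aldh1a3 were named after their values were seen. The members and lists were chosen with earlier results of these data known. With 1 group, no test was run. Alternatives covered peak sets, distances, start sites, merging and windows. On simulated data, 2000 of 2000 planted peaks and 200 of 200 planted repeats were recovered. Python 3.11.15, numpy 2.4.6, pandas 2.3.3 and matplotlib 3.10.9 were used.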

Additional observations from a re-analysis of the deposited data

How the results depend on the processing

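Of 130 recomputed values, 122 stayed within 1.5 times of the main count or within the spread between libraries, and 8 moved. With the stronger 50% of the optimal set the members had 28 peaks, with 6 at Rara, 2 at Rxra and 5 at Aldh1a1. Rarb and Cyp26b1 kept 6 each in this setting, so Rara did not stand above them there. With a limit of 10 kb that still counted summits inside gene bodies, Cyp26b1 had 0 peaks, Rarb 5 and Aldh1a1 8. The nearest Rarb summit was 12.7 kb from a start site, so those 5 were kept through its gene body. With 1 start site per gene Stra6 had 1. Leaving out a replicate gave 0 to 1 peaks at Stra6 and a difference between receptors and the other members of 2.1 to 4.35 peaks per gene. The difference stayed positive under each of these settings, at 0.65 with the stronger 50%, and was 0.25 with Rara left out, a value chosen after seeing the data. The starts of protein-coding transcripts alone, an alternative chosen after seeing the data, gave 46 peaks. No paired analysis was possible because there is only 1 group. Unknown depth limits what an absent peak can show.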

Other observations

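Beyond the limit of 100 kb, a further 8 optimal peaks had a Rarb TSS as their nearest and lay 138.8 to 354.3 kb before the gene, with signals of 28.9 to 87.1. The strongest of them, at chr14:17089047-17089470 and 270.1 kb away, ranked 9120 in replicate 1 and 8698 in replicate 2. Rarb thus had more peaks outside the limit (8) than inside it (6), and no other member had more than 2 outside. A peak can fall outside only where no protein-coding start lies within 100 kb. Members with close neighbours, such as Rara and Rxrb with territories of 47.6 kb and 6.20 kb, had no such sequence of their own. None of the 8 Rarb peaks outside the limit lay in an annotated gene.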
